A study of Glycine max with 26 samples.

Results

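The comparison described here set the subjective day of the first sampled cycle against the subjective night that followed it in developing soybean seeds. Day was represented by the 6 arrays labelled 28h, 32h and 36h, and night by the 6 arrays labelled 40h, 44h and 48h, with 2 arrays at each time. These are 12 of the 26 arrays of the series, and they were chosen by their time labels alone. The features compared were the 11481 of 16383 probe sets (the array's units of measurement, each reading 1 transcript or a few similar ones) whose mean signal over the 26 arrays was above 4 on the log2 scale.

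All seeds came from cultivar Williams 82 with no other genotype or treatment, were taken with their coats 5 weeks after the flower opened, and were pooled as 8 seeds from 3 plants per replicate. Plants had been entrained to 12 h of light and 12 h of dark at 25 °C and were then moved to constant light of the same strength at a subjective dawn. Sampling began 24 h later, at another subjective dawn, and ran every 4 h to 72 h. Because the lights stayed on, day and night are the times at which light and dark would have come, and both arms were collected in the light. Nothing in the labels tells whether replicates came from separate sets of plants, so the p-values measure the spread between pooled samples, which may be partly technical.

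Plant cells carry a circadian clock in which MYB factors made around dawn, such as LHY, and evening proteins repress one another. The clock times the transcription of many output genes, among them genes of photosynthesis in leaves, and keeps doing so in constant light. A maturing soybean seed fills with storage protein and oil, is still green for part of this time, and builds up late embryogenesis proteins and raffinose-family sugars before it dries.

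The 12 arrays were alike in overall signal. Medians over probe sets lay between 6.11 and 6.41, replicates of a time correlated at 0.988 to 0.994 across probe sets, and the median correlation was 0.991 between different times of an arm and 0.986 between arms. Each time had 1 array with a low and 1 with a high lowest signal, replicate 1 being the low one at all 6 times. Mean signals of the storage protein probe sets ran from 7.55 (GY7) to 16.24 (GY1, a glycinin subunit), and those of the seed coat markers from 10.05 (PRP3) to 14.51 (PRX2B). Of 16 probe sets for vegetative tissue markers, 4 passed the signal filter, with means of 10.18 (NOD33), 7.59 (N-26), 6.15 (VSPA, a vegetative storage protein) and 4.62 (ENOD40B). The VSPA probe set carries the cluster number of the aquaporins PIP1-7 and PIP1-10, so its annotation is uncertain.

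Day and night differed at 645 of 11481 probe sets (5.62%) in limma's moderated test at an adjusted p of 0.05. Counts of calls in the gene lists below are to be read against this share. Signals were higher in the day at 295 (2.57%) and higher in the night at 350 (3.05%). The differences were mostly small. Their median size was 0.55 on the log2 scale (1.47-fold), and 82 exceeded 2-fold, 32 of them higher in the day and 50 in the night. The 645 probe sets fell into 543 probe clusters, and 90 of them carried a usable name of a single gene, covering 75 genes. With each array centred on its own median, 705 passed, of which 225 were higher in the day and 480 in the night, so the balance between directions depended on the scaling.

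At 497 probe sets (4.33%) the 6 day arrays and the 6 night arrays did not overlap, 295 with the day above (2.57%) and 202 with the night above (1.76%). Of these, 316 were among the 645. Every one of the 645 differed in the same direction within the low-floor arrays alone and within the high-floor arrays alone, which are subsets of the arrays that gave the calls. Within the high-floor arrays 682 probe sets passed the test. Within the low-floor arrays 0 passed in limma, with 1045 at an unadjusted p under 0.05.

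Leaving out 1 of the 12 arrays gave between 320 and 683 probe sets past the threshold. The count fell by more than 1.5 times to 328 without 28h replicate 1, 366 and 400 without 32h replicates 1 and 2, and 378 without 36h replicate 2. It was 401 without 40h replicate 2, 367 and 407 without 44h replicates 1 and 2, and 320 without 48h replicate 2. With both arrays of a time left out, the lowest counts were 263 without 28h and 286 without 40h.

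The probe sets higher in the day were mostly highest at the first time of the day and lowest at the first time of the night. Of the 295, 189 (64.1%) had their highest time mean at 28h and 204 (69.2%) their lowest at 40h. The probe sets higher in the night were placed later, with 214 of 350 (61.1%) highest at 44h and 209 (59.7%) lowest at 32h. Over all 11481 probe sets, 14.4% were highest at 28h and 21.1% lowest at 40h. Likewise 14.4% were highest at 44h, and 26.7% lowest at 32h, the most frequent lowest time. At 48h, the subjective dawn, the median of both classes had moved back towards its level over all times, to -0.12 for the day class and 0.10 for the night class. These medians describe genes chosen on the same arrays and carry no test.

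**Figure D1:**
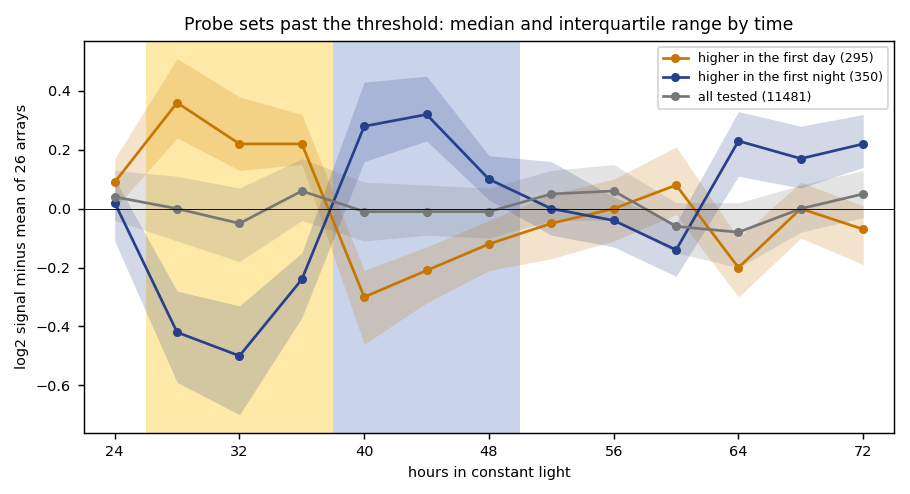
Median log2 signal relative to each probe set's own mean over all times (vertical axis) at the 13 sampled times in hours (horizontal axis), with the interquartile range shaded, for the 295 probe sets higher in the day, the 350 higher in the night and all 11481. The yellow and blue backgrounds mark the day and night times compared. The day class stood at 0.36 at 28h and -0.30 at 40h, and from 52h on its median lay between -0.20 and 0.08.

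Lipoxygenases, which oxidise polyunsaturated fatty acids, held the probe set with the largest difference among the 645 past the threshold. Of 9 lipoxygenase probe sets tested (13 on the table), 5 were higher in the night and 0 in the day, with a median difference of -1.43 against 0.02 over all probe sets. The 5 are annotated as LOX7, LOX9 and LOXB1. All 5 are of designs that can read more than 1 transcript, so the genes that changed cannot be settled. LOX1.1, LOX2 and LOX3, the lipoxygenases abundant in the seed, differed by 0.04, -0.01 and 0.10 and did not pass, at mean signals of 13.45 to 14.92. LOX1.4 gave -0.61 and did not pass either.

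LOX7 measured 4.19, 5.36 and 5.7 in the replicate 1 arrays at 28h, 32h and 36h, and 6.2, 7.1 and 7.32 in the replicate 2 arrays. At 40h, 44h and 48h it measured 8.19, 8.19 and 7.72 in replicate 1 and 9.77, 9.21 and 9.36 in replicate 2. Every night array was therefore above every day array, and replicate 2 was above replicate 1 at all 6 times. The means were 5.98 ± 1.16 in the day and 8.74 ± 0.81 in the night (SD, n = 6), a difference of -2.76 ± 0.51 (SE, 6.79-fold, limma adjusted p = 0.00481). Its second probe set, of a design that can read similar transcripts too, gave -2.42. The LOX7 probe sets and that of PRP3, a proline-rich protein, carry the same cluster number, so their annotation is uncertain.

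LOXB1 ranged from 4.09 to 4.85 around a median of 4.56 in the day and from 5.61 to 7.57 around 6.19 in the night, without overlap (-1.87 ± 0.35, limma adjusted p = 0.00555). LOX9 ranged from 7.87 to 9.39, median 8.75, in the day and from 9.39 to 10.75, median 10.27, in the night, so its arms met at 9.39. Its difference was -1.47 ± 0.30 (limma adjusted p = 0.00838). The 5 calls became 3 without the 28h arrays, and between 4 and 5 without any single array.

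Small secreted peptides of the gibberellin-regulated GASA family also included called and uncalled members. Of 10 probe sets tested (16 on the table), 3 were higher in the night and 0 in the day. The other 7 had differences between -0.16 and 0.35, among them GASA12 and GASA22, each 0.02, at mean signals of 14.14 and 13.87. After quantile normalization 1 member also passed as higher in the day.

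GASA4 measured 9.91 and 10.92 at 28h, 9.84 and 11.26 at 32h, and 10.95 and 11.51 at 36h. It then measured 12.53 and 13.06 at 40h, 12.93 and 13.09 at 44h, and 12.22 and 13.26 at 48h. The lowest night array was above the highest day array. With 6 arrays per arm, the difference was -2.12 ± 0.25 (SE of the limma model, 4.33-fold, limma adjusted p = 0.000282). On the 12 second-cycle arrays GASA4 lay between 12.60 and 13.41. The difference between the cycles did not pass the threshold (limma adjusted p = 0.131).

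GASA9 rose from a day median of 10.69 (10.04 to 11.35) to a night median of 11.93 (11.47 to 12.36), a difference of -1.16 ± 0.20 with limma adjusted p = 0.00241. GASA29 had a day median of 9.36 (8.93 to 10) and a night median of 10.70 (10.01 to 11.12), differing by -1.19 ± 0.24 with limma adjusted p = 0.00815. Neither pair of arms overlapped, although the GASA29 arms came within 0.01 of each other at the printed precision.

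**Figure D2:**
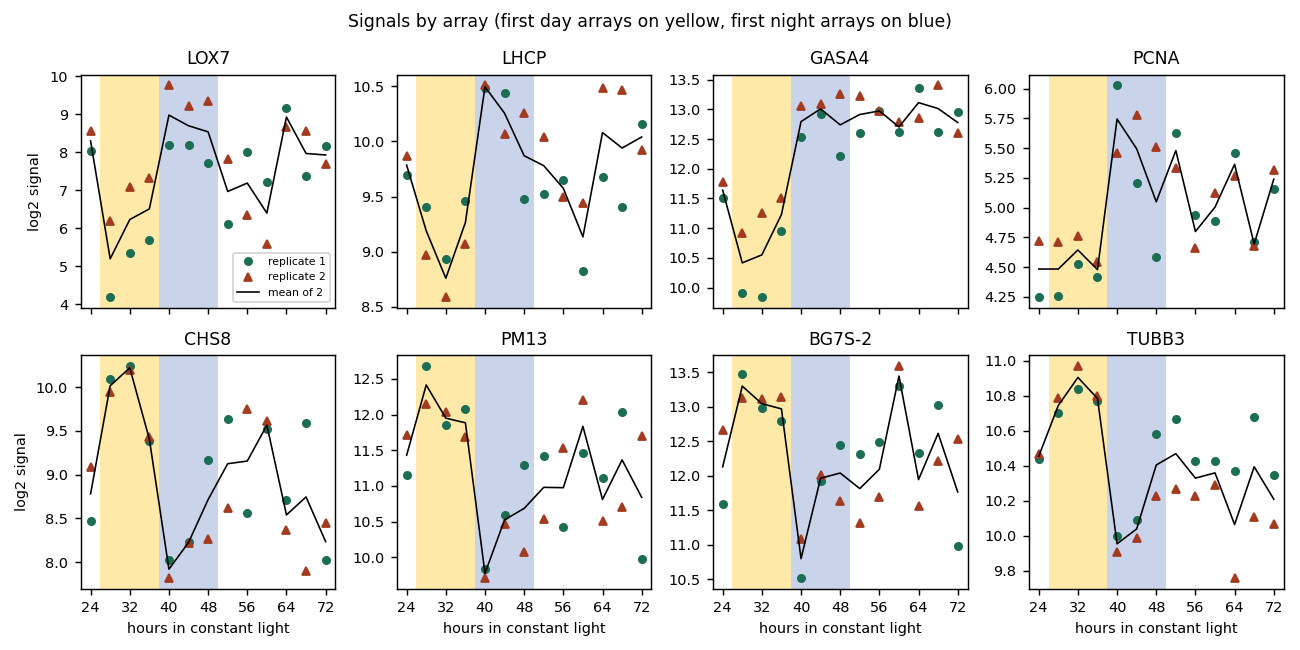
Log2 signal (vertical axis) of LOX7, LHCP, GASA4, PCNA, CHS8, PM13, BG7S-2 and TUBB3 on each array against the sampling time in hours (horizontal axis), with 1 point per array. LOX7, LHCP and GASA4 were higher on all 6 night arrays than on all 6 day arrays of the first cycle, and GASA4 stayed between 12.60 and 13.41 afterwards.

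Genes of the chloroplast were lower in the subjective day. All 15 probe sets tested (21 on the table) had a negative difference, 12 passed as higher in the night and 0 as higher in the day, and the median was -0.59. They included light-harvesting proteins (LHCP and CAB3), Rubisco activase (RCA14 and RCAALPHA), a photosystem I subunit (PSAD), a chloroplast ATP synthase subunit (ATPC, gamma), and ELIP, an early light-induced protein. The 15 probe sets covered 10 genes, so they are not 15 independent readings. The RCA14 and RCAALPHA probe sets carry the same cluster number and may read the same transcripts. CHLH, a subunit of magnesium chelatase, GSA1, which acts early in tetrapyrrole synthesis, and a second PSAD probe set gave -0.44, -0.21 and -0.33 and did not pass.

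LHCP measured 9.41 and 8.97 at 28h, 8.93 and 8.59 at 32h, and 9.46 and 9.07 at 36h. In the night it measured 10.48 and 10.51 at 40h, 10.44 and 10.07 at 44h, and 9.48 and 10.26 at 48h. The arms did not overlap, although 48h replicate 1 lay only just above the highest day array. The difference was -1.13 ± 0.20 (2.19-fold, limma adjusted p = 0.00358). A second LHCP probe set gave -1.16 and passed (limma adjusted p = 0.00543), but its arms overlapped. Both LHCP probe sets are of designs that can read more than 1 transcript.

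FBP, the symbol used for fructose-1,6-bisphosphatase, ranged from 6.35 to 6.84 in the day and from 7 to 7.56 in the night, a difference of -0.72 ± 0.12 with limma adjusted p = 0.00199. CAB3, at a mean signal of 14.89 in its brighter probe set, differed by -0.54, and its dimmer probe set by -0.59. The dimmer one carries the cluster number of an LHY probe set, so its annotation is uncertain. The mean over the 15 probe sets lay between 8.77 and 9 on the day arrays and between 9.16 and 9.63 on the night arrays, with 48h replicate 1 the lowest of the night. The calls numbered 7 without the 32h arrays and 7 without the 40h arrays.

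Several genes with other roles were also higher in the night. SCB1, a BURP-domain protein of the seed coat, measured from 9.81 to 10.63 (median 10.17) in the day and from 11.65 to 12.73 (median 12.38) in the night, a difference of -2.07 ± 0.32 (4.21-fold, limma adjusted p = 0.00122). Its arms were more than 1 log2 unit apart. Of the 7 seed coat marker probe sets, 1 passed (PRP3, a proline-rich protein, -0.56), and their mean signal overlapped between day (12.71 to 13.13) and night (12.92 to 13.22). In whole seeds, fewer cells of a type and less RNA per cell cannot be told apart, and the part of the coat's share in the SCB1 difference was not tested.

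PCNA, the sliding clamp of DNA replication, was read by 4 probe sets, all of them higher in the night by 0.48 to 0.90 and all past the threshold. They share a cluster number, so they are not 4 independent readings. The brightest, at a mean signal of 8.15, gave -0.48, and a dimmer one only just passed (limma adjusted p = 0.0499). The probe set with the smallest p had a mean signal of 5. On it PCNA measured between 4.26 and 4.76 in the day and between 4.59 and 6.03 in the night. Of its night arrays, 48h replicate 1 alone fell into the day's range (-0.90 ± 0.16, limma adjusted p = 0.00384). Both probe sets of BIP4, a chaperone of the endoplasmic reticulum, passed as well, with differences of -0.59 and -0.62. The other 12 of 14 heat shock and chaperone probe sets did not pass, including HSP90-1 at -0.13 to -0.27.

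Among 23 aquaporin probe sets, SIP1-6 (-0.65 ± 0.14, limma adjusted p = 0.0109) and PIP2-13 (-0.38 ± 0.10, limma adjusted p = 0.0247) were higher in the night. These 2 of 23 are near the 5.62% called over all probe sets. A second SIP1-6 probe set gave -0.14 and a second PIP2-13 probe set -0.33, and neither passed. GSTU3 (-0.80), SBPRP (-0.76), SSTP-1 (-0.84) and GH (-0.42) were also higher in the night. A second SSTP-1 probe set gave -0.14 and did not pass. GH and PRP3 were the 2 calls among 10 auxin and growth probe sets. When single arrays were dropped, SSTP-1 passed only without 28h replicate 2 or 48h replicate 1, GH only without 36h replicate 1 or 48h replicate 1, and PRP3 only without 28h replicate 2 or 44h replicate 2. PIP2-13 passed only when the second replicate at 28h, 40h or 44h, or the first at 48h, was left out, with adjusted p up to 0.0944 otherwise.

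Seed maturation genes made up the largest named group higher in the day. The list of late embryogenesis, maturation and desiccation proteins had 33 probe sets tested, of which 15 were higher in the day, 0 in the night, and 32 had a positive difference. The median was 0.48 against 0.02 over all probe sets. The brightest members did not pass: PM30, at a mean signal of 15.83, differed by 0.05, and PM31, at 15.29, by 0.11.

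PM13, a seed maturation protein by its name, measured 12.68 and 12.15 at 28h, 11.86 and 12.04 at 32h, and 12.08 and 11.69 at 36h. It fell to 9.84 and 9.71 at 40h, and stood at 10.59 and 10.46 at 44h and 11.29 and 10.08 at 48h. The lowest values were thus at the first time of the night, and the arms did not overlap. The difference was 1.75 ± 0.32 (3.37-fold, limma adjusted p = 0.00442).

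MAT1 had the largest difference of the group, 2.64 ± 0.59 (limma adjusted p = 0.0125), with a day range of 7.69 to 10.15 and a night range of 4.61 to 7.82 that overlapped. Its call ended without 28h replicate 1 or without 48h replicate 2. SLE2, a late embryogenesis protein, ranged from 12.72 to 13.69 in the day and from 11.38 to 12.75 in the night (1.24 ± 0.24, limma adjusted p = 0.00615). PM3 did not overlap, at 12.04 to 12.83 against 10.56 to 11.84 (1.22 ± 0.26, limma adjusted p = 0.0103).

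GOLS, galactinol synthase, which makes the galactosyl donor of raffinose sugars, ranged from 5.83 to 7.46 (median 6.58) in the day and from 5.17 to 5.80 (median 5.51) in the night, a difference of 1.12 ± 0.24 with limma adjusted p = 0.00956. GOLS was the single member of the 10 sugar metabolism and transport probe sets past the threshold. MP2 differed by 1.51 ± 0.35 and lost its call without 28h replicate 1 or 48h replicate 2. PGMPM18, which is not on the list, differed by 1.88 ± 0.38 without overlap.

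The mean level of the 33 probe sets lay between 11.64 and 12.06 on the day arrays and between 10.94 and 11.57 on the night arrays. It was highest at 28h and lowest at 40h. The list's count of 15 became 8 without 28h replicate 1, 7 without 48h replicate 2, 4 without the 28h arrays and 2 without the 40h arrays.

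This level also moved with the rest of the comparison. With the maturation mean of each array added to the model as a covariate, 9 probe sets passed in place of 645, 5 of them shared. The median size of the 645 differences became 0.33 in place of 0.55, with 633 keeping their sign, and the median standard error over all probe sets rose from 0.12 to 0.17. In that model 0 members of the lipoxygenase, chloroplast, GASA or flavonoid lists passed. The covariate averages the 33 maturation probe sets, 15 of which are among the 645, so those were partly fitted on themselves. The other 630 lie outside it. The maturation level and the day and night labels move together on these arrays, and how much of each difference belongs to either cannot be told apart.

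**Figure D3:**
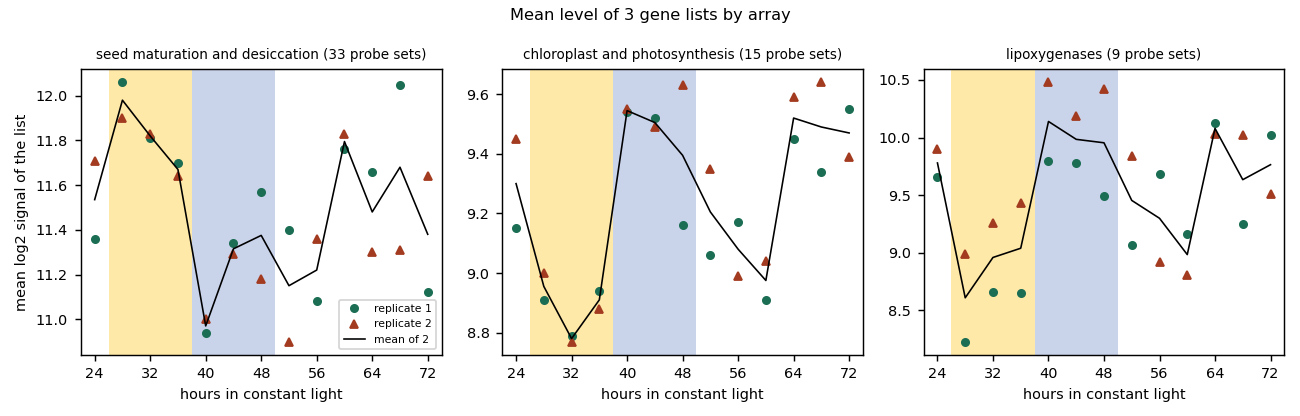
Mean log2 signal over the tested probe sets of the maturation, chloroplast and lipoxygenase lists (vertical axis) on each array against the sampling time in hours (horizontal axis). In the first cycle the day and night arrays did not overlap for any of these lists, with chloroplast means of 8.77 to 9 in the day and 9.16 to 9.63 in the night.

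Storage genes showed 1 call among 13 probe sets, which is near the 5.62% called over all probe sets. BG7S-2, a basic 7S globulin, measured 13.47 and 13.13 at 28h, 12.98 and 13.11 at 32h, and 12.80 and 13.14 at 36h. It measured 10.52 and 11.08 at 40h, 11.92 and 12.01 at 44h, and 12.44 and 11.64 at 48h. The day arrays were close together and all above the night arrays, which were lowest at 40h, and the difference was 1.5 ± 0.28 (limma adjusted p = 0.00499). The call ended without the 40h arrays. The related BG7S-1, at a mean signal of 15.18, differed by 0.04, the glycinin probe sets by -0.49 to 0.03, and the beta-conglycinin probe sets by 0.03 and 0.05.

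Of 8 protease inhibitor probe sets 1 passed, against 5.62% of all probe sets. It was BBI-2, a Bowman-Birk inhibitor, with 5.99 to 7.38 in the day and 4.53 to 6.52 in the night (1.51 ± 0.34, limma adjusted p = 0.014). This call ended when the first replicate at 28h, or the second at 40h or 48h, was left out. None of 18 oil and fatty acid probe sets passed in limma, where 5.62% of all probe sets did. FAD2-2, a fatty acid desaturase, came nearest at -0.53 (limma adjusted p = 0.0941).

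Calls among the genes of flavonoid synthesis fell on 3 enzymes. Of 30 probe sets tested (38 on the table), 5 were higher in the day and 0 in the night, with a median of 0.03. They were 3 of the 4 CHS8 probe sets (chalcone synthase), CHI1A (chalcone isomerase, 0.68 ± 0.14) and PAL2.1 (phenylalanine ammonia-lyase, 0.71). The isoflavone synthases IFS1 and IFS2 gave 0.29 and 0.28, and the malonyltransferase IF7MaT -0.45, without passing.

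CHS8 measured 10.09 and 9.94 at 28h, 10.24 and 10.20 at 32h, and 9.38 and 9.43 at 36h. It measured 8.02 and 7.82 at 40h, 8.23 and 8.22 at 44h, and 9.17 and 8.26 at 48h. Replicates agreed to within 0.2 at every time except 48h, and the arms did not overlap (1.59 ± 0.27, 3.01-fold, limma adjusted p = 0.00224). The fourth CHS8 probe set, dim at a mean signal of 4.14, gave 0.26, and because the brighter ones share sequence with other chalcone synthases, the gene that changed cannot be settled. Within the high-floor arrays 8 members of the list passed, 5 higher in the day and 3 in the night, and with either other scaling (quantile or median centring) 7 passed, 5 and 2.

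Glutathione transferases, which conjugate glutathione to small molecules, were called in both directions. Of 25 probe sets, GSTL7 (0.49 ± 0.09), both GSTU18 probe sets (1.07 and 1.29) and GST24 (0.46) were higher in the day and GSTU3 in the night. The 4 day calls became 2 without 28h replicate 1 and 1 without 48h replicate 2.

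The calls among transcription factors were all higher in the day, and their number was near the 5.62% called over all probe sets. They were MYB92, MYB133 and MYB177 of 27 MYB probe sets, BZIP95 of 40 bZIP probe sets, and WRKY52 and NAC2 of 30 NAC and WRKY probe sets. MYB92 had the largest difference, 1.12 ± 0.26 (6.81 to 7.44 against 5.39 to 6.85, limma adjusted p = 0.0148), and WRKY52 gave 0.74 ± 0.17 without overlap. A second WRKY52 probe set gave 0.41 and did not pass. Single arrays ended these calls. MYB92 did not pass when the first replicate at 40h or 44h, or the second at 48h, was left out, and WRKY52 when the second replicate at 32h was. NAC2 lost its call without the first replicate at 28h or 44h, or the second at 32h, 36h or 40h. MYB133 passed only when the array left out was the first replicate at 28h, 36h or 48h. BZIP95 passed only when it was the first replicate at 36h or 40h, or the second at 32h or 48h.

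TUBB3, a beta tubulin, was the single call among 16 housekeeping and ribosomal probe sets, near the 5.62% called over all probe sets. It lay between 10.70 and 10.97 on the day arrays and between 9.91 and 10.58 on the night arrays (0.68 ± 0.12, limma adjusted p = 0.00363). Another beta tubulin, TUBB, gave -0.20 and did not pass. GMIPER1 differed by 1.17 ± 0.28 and lost its call when the first replicate at 28h, 32h or 44h, or the second at 36h, 40h or 48h, was left out.

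**Figure D4:**
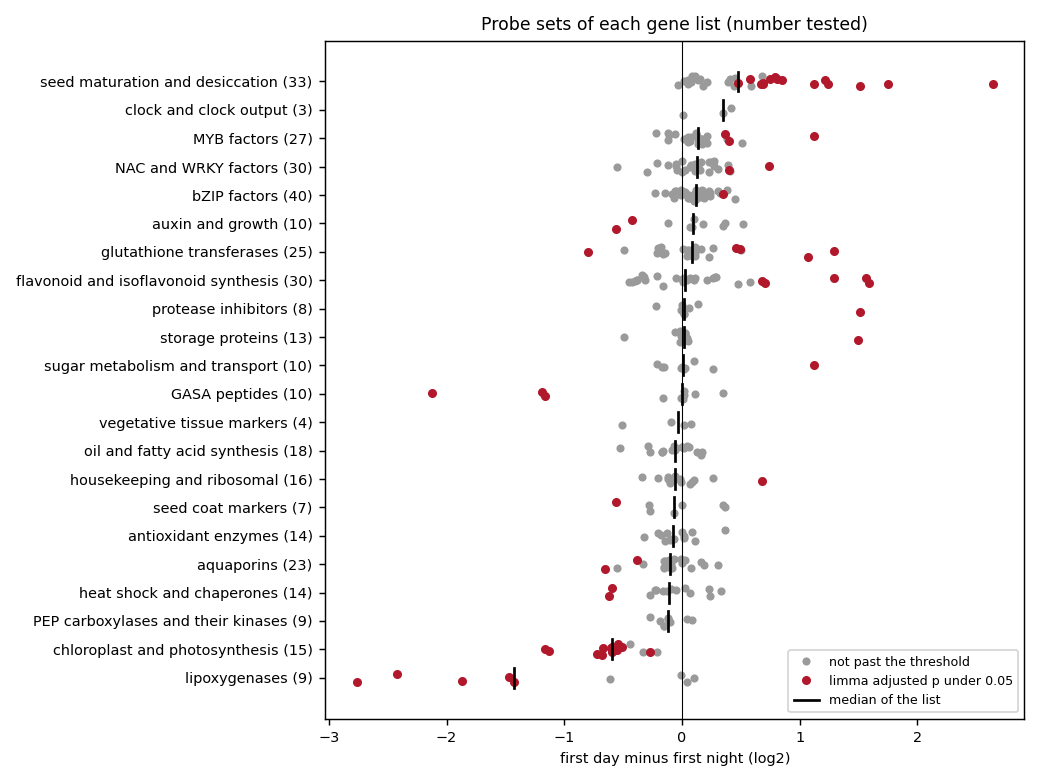
First-cycle difference, day minus night on the log2 scale (horizontal axis), of each tested probe set (points) in the 22 gene lists (rows), with called probe sets in red and a bar at each list's median. The chloroplast points all lie below 0 and 32 of the 33 maturation points above 0, while the storage points other than BG7S-2 and GY3 lie close to 0.

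The clock list offered little to measure. LHY, a dawn oscillator gene, was read by 2 tested probe sets at mean signals of 4.63 and 4.25, close to the filter, and COL10, a CONSTANS-like gene, by 1 at 7.56. The brighter LHY probe set carries the same cluster number as the dimmer CAB3 probe set, so the annotation of both is uncertain. On it, LHY measured 5.66 and 4.79 at 28h and between 4.41 and 4.85 at 32h and 36h. It lay between 3.92 and 4.94 in the night. The difference was 0.42 ± 0.19 and COL10 gave 0.35 ± 0.13, with limma adjusted p of 0.254 and 0.162, so neither passed. The other LHY probe set gave 0.01 ± 0.18. The antioxidant enzymes (14 probe sets), PEP carboxylases and their kinases (9) and vegetative markers (4) had 0 calls in limma, where 5.62% of all probe sets were called.

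The smallest p of the whole comparison belonged to a probe set with no gene name, Gma.5979.1.S1_at. It measured 5.75 and 6.07 at 28h, 5.99 and 5.80 at 32h, 6.72 and 6.36 at 36h, 7.94 and 7.69 at 40h, 7.80 and 8.13 at 44h, and 7.16 and 7.85 at 48h. The arms did not overlap, and the difference was -1.65 ± 0.15 (3.13-fold, limma adjusted p = 6.26e-05). Gma.2798.1.S1_at (-0.93) was also higher in the night, and Gma.13113.1.S1_at (1.19) and Gma.46.1.S1_at (0.69) in the day. Of the 41 named probe sets past the threshold, Gma.5979.1.S1_at and Gma.2798.1.S1_at were the 2 that also passed with the maturation level as a covariate.

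The following cycle, measured on other arrays, gave the same contrast 24 h later: 52h, 56h and 60h against 64h, 68h and 72h. In limma 0 of 11481 probe sets passed there (0%), with 829 (7.22%) at an unadjusted p under 0.05 and a smallest adjusted p of 0.0679. The difference between the cycles was tested directly and also gave 0 calls (0%), with 657 (5.72%) at an unadjusted p under 0.05, a smallest adjusted p of 0.131, and 320 of the 645 among the 657. The cycles were thus not shown to differ at any single probe set.

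Most of the 645 kept their direction in the second cycle. Of the 350, 333 (95.1%) were again lower in the second day, where 41% of all probe sets were. Of the 295, 222 (75.3%) were again higher in the second day, where 59% of all probe sets were. Sizes shrank, with medians of -0.24 and 0.12, and 640 of the 645 differences were smaller in the second cycle, in which they had not been selected.

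The lists gave the following second-cycle values. All 15 chloroplast probe sets were lower in the second day too, with a median of -0.40 and 13 at an unadjusted p under 0.05. The 33 maturation probe sets had a second-cycle median of -0.10, with 26 below 0, and for 22 the difference between cycles reached an unadjusted p under 0.05. Their mean level overlapped between the second day (10.90 to 11.83) and the second night (11.12 to 12.05).

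Single genes gave both patterns. LOX7 was again lower in the day by 1.42 on average (5.59 to 8.02 against 7.38 to 9.18), LHCP gave -0.52 and CHS8 0.77, where GASA4 gave -0.10, PCNA 0.00 and PM3 -0.01. For GASA4 the cycles differed by -2.01 ± 0.36 with an unadjusted p of 3.03e-05 and a limma adjusted p of 0.131. Time in constant light and subjective phase run together within the first cycle and cannot be told apart there.

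**Figure D5:**
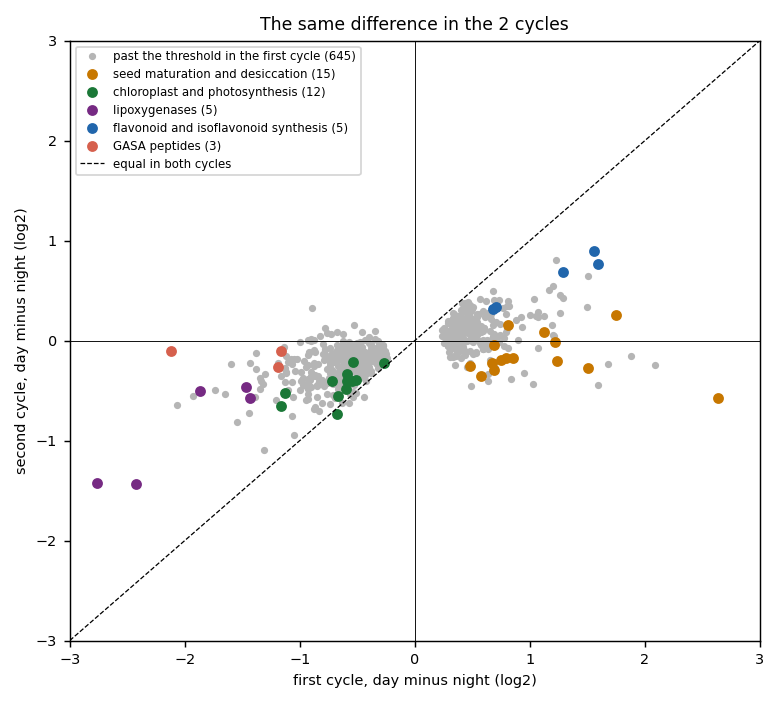
Day minus night difference on the log2 scale in the second cycle (vertical axis) against the first (horizontal axis) for the 645 probe sets past the threshold in the first cycle. Most points lie nearer to 0 in the second cycle (640 of 645), and 333 of the 350 night-higher probe sets stay below 0.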

How the data were processed

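Total RNA of soybean seeds was measured on single-colour oligonucleotide arrays after labelling as biotinylated cRNA. The authors deposited 1 signal per probe set and array, made with GCRMA, per the submitters' processing notes. The deposited signals were taken as log2 because of their range; which GCRMA version made them is stated in no source used here. GCRMA subtracts a sequence-dependent background, so differences at low signals are uncertain, and the number of arrays limits the precision. Whether differences also shrink near the highest signals was not tested. No further normalization was applied.

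Probe sets averaging above 4 (log2, 26 arrays) were fitted in limma 3.58.1 (R 4.3.3) with 1 mean for each of 13 times. The first-cycle contrast was the mean of 3 day times minus that of 3 night times, with Benjamini-Hochberg adjustment over all 11481 probe sets at 0.05. The second-cycle contrast and the difference between cycles came from the same fit. The model takes its error from replicates at a time, so variation between the times of an arm does not enter it. On simulated data for the first-cycle contrast over 11481 probe sets, 47% of 100 changes of 0.5 log2 and 95% of 100 changes of 1 log2 were recovered, and 5.33% of calls were false. The simulated noise was independent between arrays and probe sets, without the shared replicate deviations or variation between times of real arrays. The 5.33% therefore does not give the false share among the real calls.

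Probe sets were named from the platform annotation, updated through RefSeq's Glycine_max_v4.0 table. Of 16383, 5002 had 1 gene symbol, 217 several and 11164 none; 4989 matched the RefSeq table, and 1126 had a usable name. Named were, at 1 probe set per gene, up to 12 per direction with the largest difference past the threshold, filled by smallest p, 2 per list with the smallest p, and 2 unnamed probe sets per direction. The 22 lists were matched by gene symbol. Members and lists were chosen with earlier results of these data known. Alternatives covered the signal filter, scaling, variance moderation, samples in the fit, replicate and array-floor blocks, arm boundaries, arrays and times left out, and a covariate.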

Additional observations from a re-analysis of the deposited data

Results flagged for a closer look

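In 4 of 116 groups (each of the 58 named probe sets in each first-cycle arm), 1 array stood apart from the other 5 by Dixon's test; chance alone gives about 1 in 20. CHS8 on the night array 48h replicate 1 read 9.17, with the next highest night array at 8.26. SBPRP on the day array 36h replicate 1 read 10.32, with the next at 9.71. LHY on the day array 28h replicate 1 read 5.66, with the next at 4.85. TUBB on the night array 48h replicate 2 read 11.38, with the next at 11.25.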

How the results depend on the processing

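Against 645 first-cycle calls, 401 passed with no filter on low signals, 633 above a mean log2 of 6, 830 after quantile normalization, 726 with trend and robust moderation, 802 and 876 from the 12 arrays alone (1 mean per time, or 2 groups of 6), 763 with the array floor as a block, 645 without 36h and 48h (524 shared), 494 with 1 probe set per cluster, 0 and 682 within the low- and high-floor arrays, and 32 with the arms moved 4 h earlier. The single-floor fits hold 6 arrays each. Leaving out single arrays gave 320 to 683. After the data were seen, the maturation covariate (9 calls) and dropping whole times were added: 263, 396, 612, 286, 328 and 639 passed without 28h, 32h, 36h, 40h, 44h and 48h. The causes of these changes were not tested.

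Second-cycle calls, 0 as reported, numbered 4 above a mean log2 of 6, 28 after quantile normalization, 21 with median centring, 6 with trend and robust moderation, 4 with the floor block and 0 to 5 without single arrays. The difference between cycles gave 1 call with the floor block and 0 to 2 without single arrays.

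Same-numbered replicates of different times deviated together (13 of 15 pairs of times above 0.1, lowest 0.08, median 0.29), which does not establish that the numbers pair samples. With the replicate block, 654 passed in the first cycle (617 shared), 1 in the second and 1 for the difference.

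Among 58 named probe sets, signs turned for MP2 (-0.06), PPCK3 (-0.04), APX1 (-0.02), VSPA (0.15) and NOD33 (0.12) under the covariate, and for NOD33 within the high-floor arrays (0.07) and without 28h replicate 1 (0.01; range without single arrays -0.19 to 0.01). Of the 41 called, 28 kept their call without any single array, 38 within the high-floor arrays, 0 within the low-floor arrays and 5 with earlier arms.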
